A study of Mus musculus with 24 samples.

Results

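The levels of 10 genes that encode transcription factors of the airway epithelium were compared across sorted mouse tracheal cells: Sox2, Nkx2-1, Foxa1, Foxa2, Elf3, Ehf, Spdef, Creb3l1, Grhl2 and Xbp1. They were chosen by name from what is known of airway lineages and form 10 of the 35855 genes measured. Of the 10, 9 passed the filter on low counts and were among the 12211 genes tested, and Foxa2 did not. The data are RNA sequencing of 24 libraries, each made from 1000 cells that were sorted from the trachea of naive wild-type female C57BL/6 mice and amplified by SmartSeq2, a method for very small RNA inputs. The labels give 3 groups of 8 libraries: BCAM HI and BCAM LO, basal cell subsets with much or little surface BCAM (basal cell adhesion molecule), and DIFFERENTIATED EPCS, the differentiated epithelial cells. Each group holds 5 libraries of batch 1, numbered 1 to 5, and 3 of batch 2, numbered 6 to 8. No animal carried a transgene or received a treatment by the labels, which do not give the age of the mice, how many mice stand behind a library or what the batch number marks.

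The airway epithelium is renewed by basal cells, which give rise to secretory (club), mucous (goblet) and ciliated cells. SOX2 and NKX2-1 are laid down early in the embryonic foregut and keep airway identity, and the forkhead factors FOXA1 and FOXA2 open chromatin at airway genes. The ETS factors ELF3, EHF and SPDEF act in epithelial differentiation, SPDEF above all in mucous cells, while GRHL2 maintains epithelial junctions and XBP1 and CREB3L1 expand the secretory pathway of cells that export much protein.

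RefSeq start sites (build GRCm38.p6) were on hand for 7 of the 10 genes, not for Ehf, Creb3l1 and Grhl2. Of the members with one, Sox2 with Foxa1 and Spdef with Xbp1 were each other's nearest members over the 24 libraries, so the sequences before these 4 starts are shown to let the members that moved together be read side by side. Each is 5′ to 3′ on the strand of the gene and leaves out annotated exons, and capitals mark a match to a searched motif on either strand. The Foxa1 stretch precedes the coding model Foxa1-201, which held 99.95% or more of the gene's estimated counts in each group, and lies in an intron of the model Foxa1-202, which starts farther upstream. For Sox2 and Xbp1 the bases after the RefSeq start were not found in the GENCODE M21 transcripts of the gene, whose counts are reported. The Sox2 stretch ends at 34649994 and the M21 gene begins at 34650405. For Xbp1 these positions are 5520640 and 5520659.
Sox2, chr3:34649745-34649994, plus strand: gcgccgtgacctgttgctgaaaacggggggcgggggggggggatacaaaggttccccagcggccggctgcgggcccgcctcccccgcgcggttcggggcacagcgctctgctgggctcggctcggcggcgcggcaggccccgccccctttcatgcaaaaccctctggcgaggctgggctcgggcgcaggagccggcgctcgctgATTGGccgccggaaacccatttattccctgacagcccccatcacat
Foxa1, chr12:57546122-57546361, minus strand: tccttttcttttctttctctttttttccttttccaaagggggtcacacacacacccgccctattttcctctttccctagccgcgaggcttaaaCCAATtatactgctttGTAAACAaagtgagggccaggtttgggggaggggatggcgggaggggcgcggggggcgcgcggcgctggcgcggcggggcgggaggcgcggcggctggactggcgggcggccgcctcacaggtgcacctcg
Spdef, chr17:27728956-27729201, minus strand: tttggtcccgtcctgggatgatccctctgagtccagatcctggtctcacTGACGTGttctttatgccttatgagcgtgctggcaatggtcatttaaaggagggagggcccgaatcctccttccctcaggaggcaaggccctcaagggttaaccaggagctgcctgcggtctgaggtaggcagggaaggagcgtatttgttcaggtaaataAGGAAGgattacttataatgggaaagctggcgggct
Xbp1, chr11:5520391-5520640, plus strand: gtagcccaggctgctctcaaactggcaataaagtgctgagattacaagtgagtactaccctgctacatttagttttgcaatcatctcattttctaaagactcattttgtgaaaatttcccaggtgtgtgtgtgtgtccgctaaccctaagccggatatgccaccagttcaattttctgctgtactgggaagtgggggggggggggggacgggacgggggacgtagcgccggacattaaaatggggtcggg

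The 6 motifs searched in the 250 bases before each start were CCAAT, the forkhead motif TGTTTAC, the ETS motif AGGAAG, the motif TGACGTG of the CREB and ATF factors, the grainyhead motif AACCGGTT, and the ER stress element, which is CCAAT followed by 9 bases of any kind before CCACG and so is also a match to the first motif. Sox2 held CCAAT on the opposite strand, 46 to 42 bases before the start. Foxa1 held CCAAT 157 to 153 bases before the start and the forkhead motif on the opposite strand, 141 to 135 bases before it. Spdef held TGACGTG 201 to 195 bases before the start and an ETS motif 40 to 35 bases before it, and Xbp1 held none of the 6 in this window. Among all 32851 promoters in the table, CCAAT occurred in 33.8%, TGTTTAC in 3.17%, AGGAAG in 29.5%, TGACGTG in 1.65%, AACCGGTT in 0.116% and the ER stress element in 0.113%. A match is a run of letters and not a binding site that was measured, and the factors were not assayed here.

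Totals ran from 1824619 to 4440072 estimated counts per library and differed with group and batch: 2975163 to 4440072 in the BCAM libraries of batch 1, 1824619 to 2856601 in those of batch 2 and 2249001 to 2575975 in differentiated libraries. The sort labels held for the basal marker list: the summed level of 10 basal cell genes was 6617 to 10898 CPM in the BCAM groups and 270.0 to 2595 in differentiated libraries (CPM, counts over the TMM-scaled library total). The differentiated group was not uniform. Its 8 secretory cell genes summed to 89845 to 425190 CPM in 6 libraries, but to 19983 and 13492 in replicates 6 and 7. The same 8 genes summed to 26031 to 35182 CPM in BCAM high and 34894 to 75629 in BCAM low libraries. On this list differentiated replicates 6 and 7 thus lay below every BCAM library. RNA of thyroid follicle genes was present in every differentiated library, where 10 such genes summed to 13862 to 117300 CPM, with 9 of the 10 detected in all 8 libraries and Slc26a4 at 0 in 3. In the BCAM libraries the same sum was 2.45 to 1288 CPM, with 8 of the 10 genes at 0 in at least 2 BCAM high libraries. In the batch 1 differentiated libraries, 4 parathyroid genes summed to 190.5 to 17828 CPM and 6 thyroid C cell genes to 406 to 11474 CPM, against at most 239 and 219 CPM in those of batch 2. The groups are bulk samples, in which fewer cells of a type and less RNA per cell cannot be told apart.

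Levels per transcript length (TPM) put Elf3 first in all 3 groups, at a median of 146 TPM for differentiated, 246 for BCAM high and 272 for BCAM low libraries. In BCAM high cells Ehf followed at 110 TPM, then Grhl2 at 37.2 and Xbp1 at 35.8, which did not differ in order beyond their spread since Grhl2 was the higher in 4 of 8 libraries. Foxa1 at 25.1 TPM and Sox2 at 22.4 came next, and Foxa1 was the higher in 6 of 8 libraries. Nkx2-1 at 8.83 TPM and Spdef at 7.40 were again in either order in 4 libraries each. Creb3l1 at 0.277 TPM and Foxa2 at 0 closed the list.

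In BCAM low cells the order was nearly the same, with Xbp1 at 44.7 TPM now above Grhl2 at 28.9 in 7 of 8 libraries. In differentiated libraries Xbp1 took the second place at 103 TPM and exceeded Ehf, at 45.6 TPM, in 7 of 8. Elf3 exceeded Xbp1 in only 5 of these 8 libraries, which were those of batch 1, and was below it in all of batch 2. Spdef at 18.02 TPM stood above Grhl2 at 12.4, but in 4 of 8 libraries only, and Foxa1 at 8.69 TPM and Sox2 at 7.21 traded places in the same way. Nkx2-1 at 5.73 TPM was above Creb3l1 at 4.06 in 5 of 8, and Foxa2, at 0.726 TPM, was last.

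**Figure D1:**
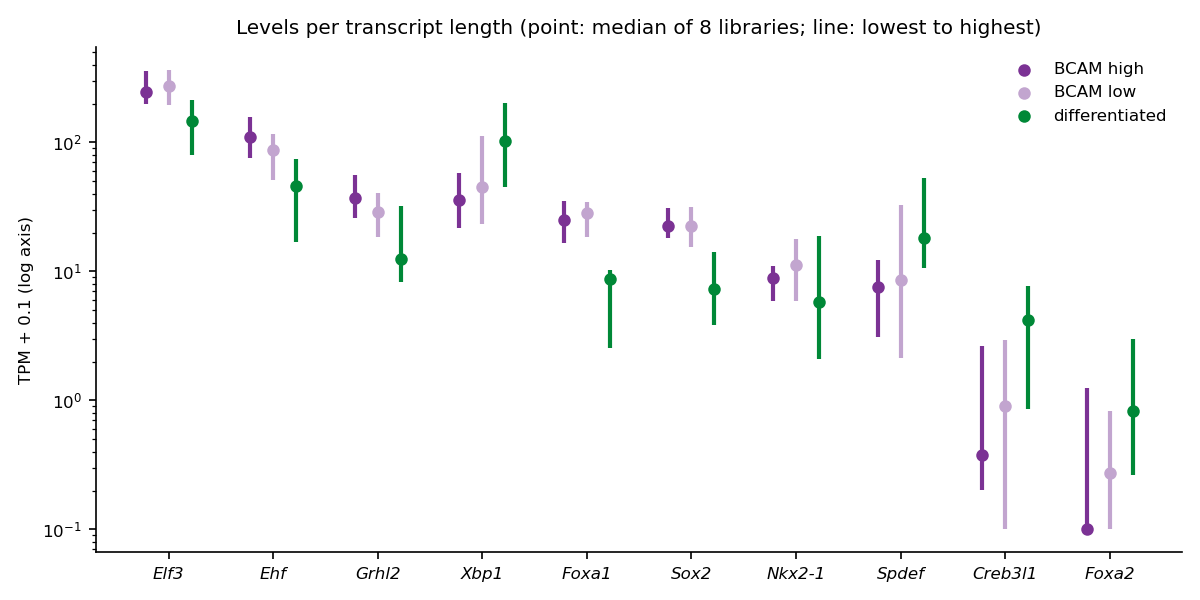
Median TPM (point) and lowest to highest TPM (line) over 8 libraries for each factor in the 3 groups, with 0.1 added on a log axis. Elf3 has the highest median in each group, Xbp1 and Spdef shift up in differentiated libraries, and Foxa2 and Creb3l1 lie lowest.

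Between the groups the factors split by direction. Foxa1, Grhl2 and Sox2 were higher in both basal subsets than in differentiated cells, and Xbp1 and Spdef were lower in both. Calls are at an adjusted p under 0.05 in edgeR's quasi-likelihood test over all 12211 genes, with Benjamini-Hochberg adjustment. Creb3l1 is set aside in these counts, since it passed the filter mainly through the differentiated group where it was high. This favoured a difference in advance. BCAM high against differentiated called 5 of the other 8 tested factors, 3 higher and 2 lower, where 41.3% of all tested genes were called (19.4% higher, 22% lower). BCAM low against differentiated called 6, with 4 higher and 2 lower, where 33.5% of all genes were called (16.3% higher, 17.1% lower). These comparisons share the differentiated libraries. BCAM high against BCAM low called 2, Elf3 and Xbp1, both lower in BCAM high, where 7.02% of all genes were called and 4.59% were called lower. Foxa2, which was not tested, is in none of these counts.

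**Figure D2:**
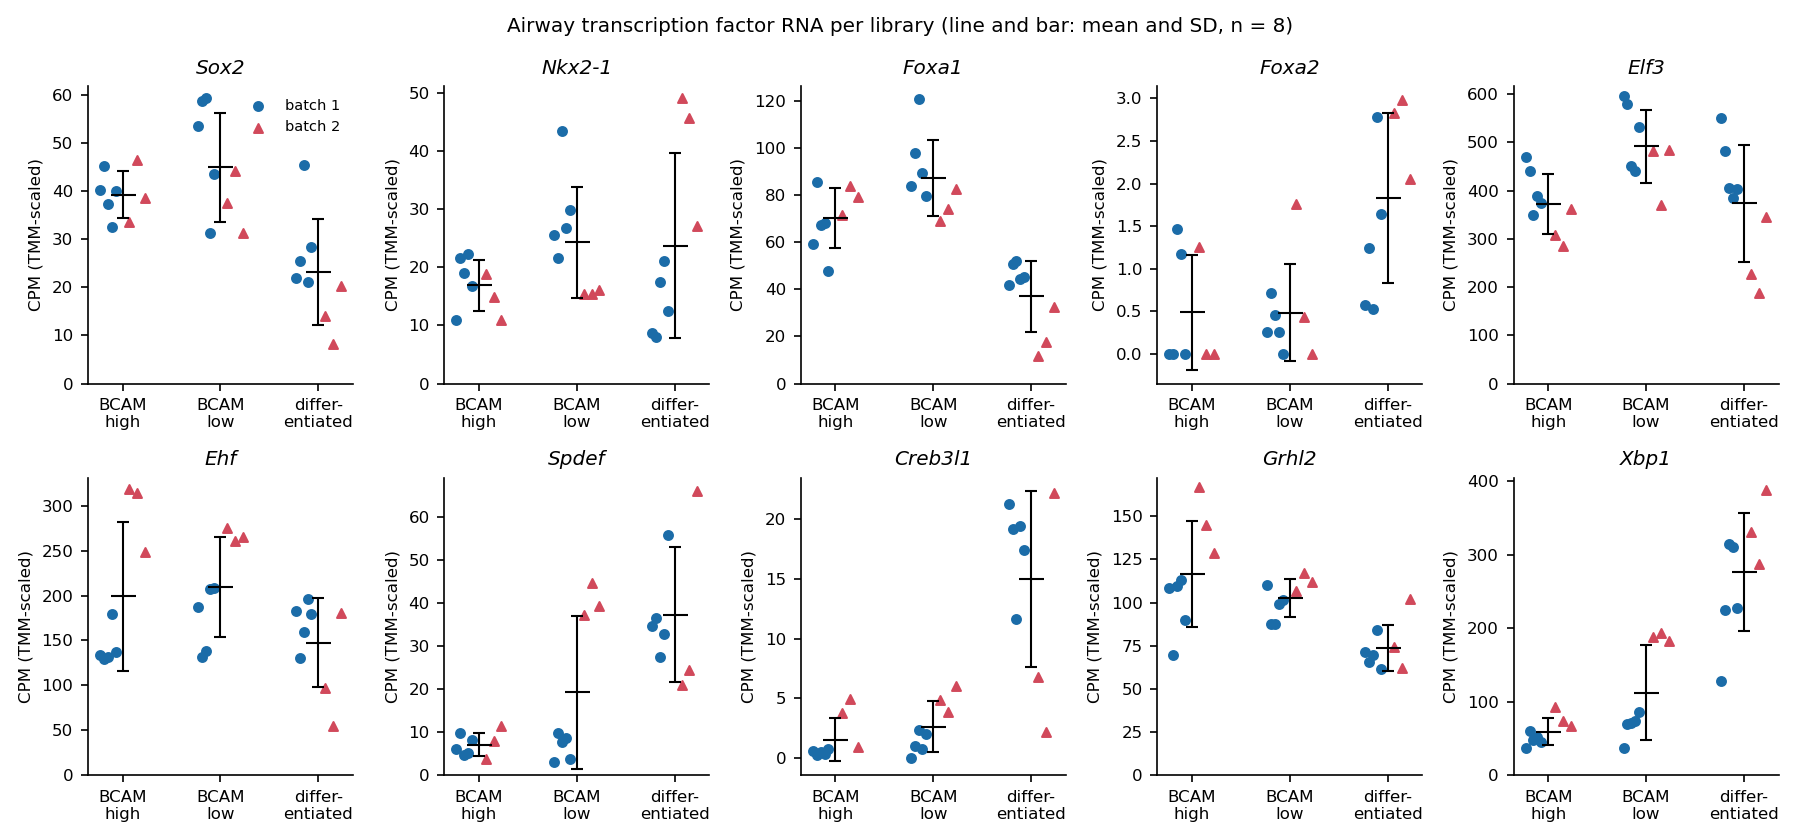
CPM of each factor in every library, by group; circles are batch 1, triangles batch 2, and the line and bar give the mean and SD of 8 libraries. Xbp1 and Spdef are lower in every BCAM high library than in any differentiated one, as are 7.3% of all tested genes. The 3 batch 2 libraries of BCAM low stand above those of batch 1 for both Xbp1 and Spdef.

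**Figure D3:**
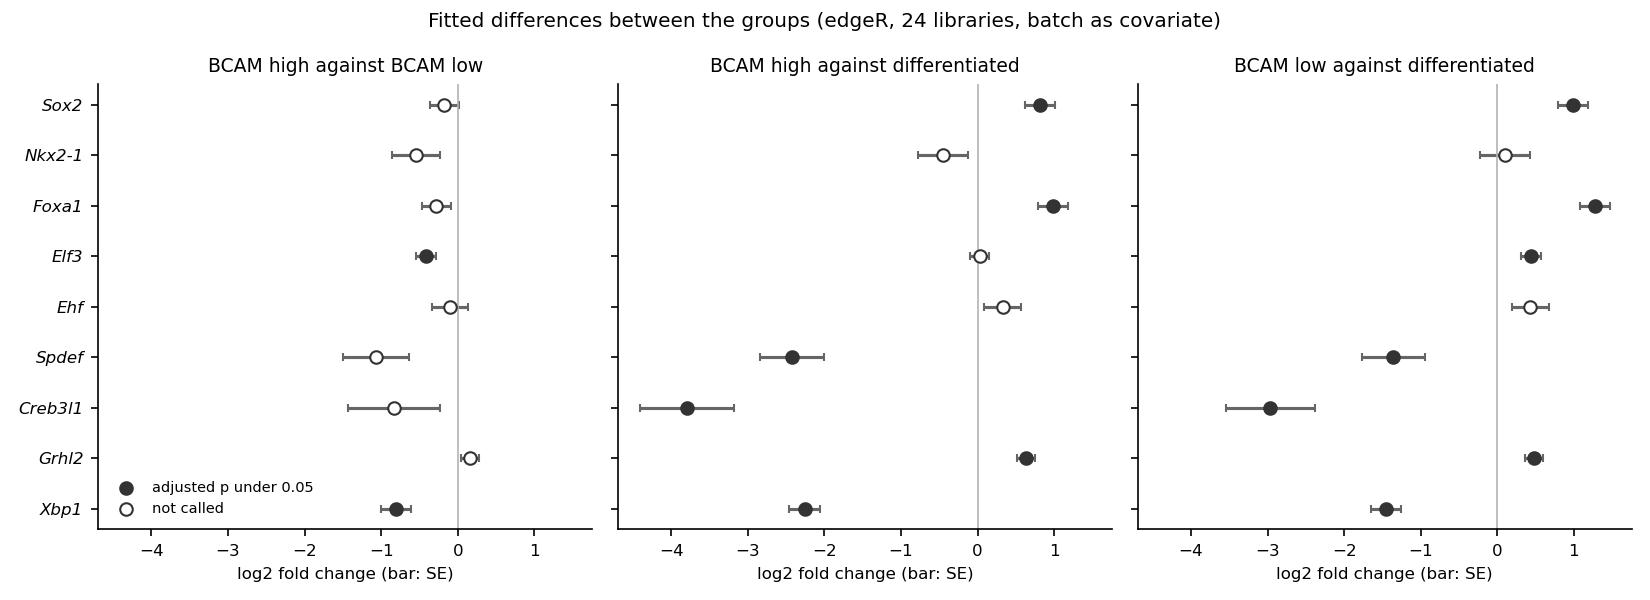
Fitted log2 fold change and its standard error for the 9 tested factors in the 3 comparisons, from the edgeR fit with batch as covariate; filled points are called. Spdef and Xbp1 lie to the left of 0 in both comparisons with differentiated cells, and Foxa1, Sox2 and Grhl2 to the right. Creb3l1, which the filter let through mainly by its level in differentiated cells, also lies to the left.

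Sox2, a SOX factor needed for the identity of the airway and of its basal cells, lies at chr3:34650405-34652461 in GENCODE M21 (GRCm38), within the long RNA Sox2ot of the same strand. Its level ran from 32.6 to 46.3 CPM in BCAM high (median 39.3), from 31.3 to 59.2 in BCAM low (median 43.8) and from 8.11 to 45.4 in differentiated libraries (median 21.5). Both basal groups lay above most differentiated libraries, and 1 differentiated library of batch 1 reached into their range. In the edgeR fit Sox2 was higher by 0.82 log2 in BCAM high (SE 0.20, adjusted p 0.00143) and by 0.99 in BCAM low (SE 0.20, adjusted p 2.68e-04). The basal subsets did not differ by the test, at -0.17 log2 for BCAM high against low (95% interval -0.56 to 0.21, adjusted p 0.669). In batch 1 alone the difference between BCAM high and differentiated cells was 0.46 log2 with an adjusted p of 0.0957 in edgeR, which ends that call.

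Foxa1, a forkhead factor that opens chromatin, lies at chr12:57540628-57546916 on the minus strand. It showed the same pattern with a wider gap. Its level was 48.0 to 85.7 CPM in BCAM high (median 69.8), 69.3 to 121 in BCAM low (median 83.3) and 11.9 to 52.2 in differentiated libraries (median 43.2). Every BCAM low library was above every differentiated one, as for 3.44% of all tested genes, while 1 BCAM high library lay within the differentiated range. The fitted differences from differentiated cells were 0.99 log2 in BCAM high (SE 0.20, adjusted p 1.55e-04) and 1.27 in BCAM low (SE 0.19, adjusted p 8.75e-06, both edgeR). The difference between the subsets was -0.28 log2 (95% interval -0.66 to 0.10) and was not called.

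Foxa2, the second forkhead factor of the foregut, at chr2:148042877-148046969, was barely detected. No library held more than 7 counts, and 7 of 24 held 0, so no fit was made. Summed over 8 libraries, it had 29 counts in differentiated cells against 14 in BCAM high and 12 in BCAM low cells. Pooled per group these were 1.88, 0.492 and 0.435 CPM. The ratio of differentiated to BCAM high was 3.82 (exact 95% interval 1.96 to 7.83) and that of differentiated to BCAM low 4.32 (2.14 to 9.30). These intervals cover counting error only, not the spread between libraries.

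Nkx2-1, the homeodomain factor of lung, trachea and thyroid, lies at chr12:56531958-56536908 and overlaps an antisense gene, Gm26973. It was called in none of the 3 comparisons of groups. Its level was 10.97 to 22.3 CPM in BCAM high (median 17.8), 15.4 to 43.5 in BCAM low (median 23.5) and 8.04 to 49.1 in differentiated libraries (median 19.3). All 3 ranges overlap, and the widest is that of the differentiated group. The fitted differences were -0.55 log2 for BCAM high against low (95% interval -1.19 to 0.09), -0.45 for BCAM high against differentiated (-1.12 to 0.22) and 0.10 for BCAM low against differentiated (-0.57 to 0.77).

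These averages hide opposite differences in the batches. In batch 1 the differentiated libraries held 8.04 to 21.1 CPM of Nkx2-1 and BCAM low 21.5 to 43.5. In batch 2 the differentiated libraries held 27.2 to 49.1 CPM and BCAM low 15.4 to 16.1. In edgeR fits within a batch, BCAM low against differentiated was 1.11 log2 in batch 1 (adjusted p 0.00238) and -1.37 in batch 2 (adjusted p 0.0061). The difference between the batches was itself called, at -2.48 log2 (SE 0.43, adjusted p 1.97e-04 in edgeR), where 11.4% of all genes had such a call. For BCAM high against differentiated it was -1.86 log2 (SE 0.43, adjusted p 0.00448), from 0.42 in batch 1 to -1.45 in batch 2, where 8.69% of all genes were called. The summed thyroid follicle genes moved with the Nkx2-1 level among the differentiated libraries: 13862 to 26069 CPM in batch 1, and 83572, 117300 and 49700 CPM in replicates 6, 7 and 8, which held 49.1, 45.6 and 27.2 CPM of Nkx2-1. Their part in these values was not tested. In BCAM low batch 1, with the highest Nkx2-1 outside that group, the thyroid sum was 3.32 to 11.2 CPM.

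The 2 coding models of Nkx2-1 shared its counts unequally. The shorter, Nkx2-1-202, took 86.8% of the estimated counts among BCAM high, 100% among BCAM low and 95.4% among differentiated libraries. The longer, Nkx2-1-201, had 64 summed counts in BCAM high and 0 in BCAM low, there out of 724.7 counts for the gene. Such shares are estimates that divide reads between overlapping models.

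**Figure D4:**
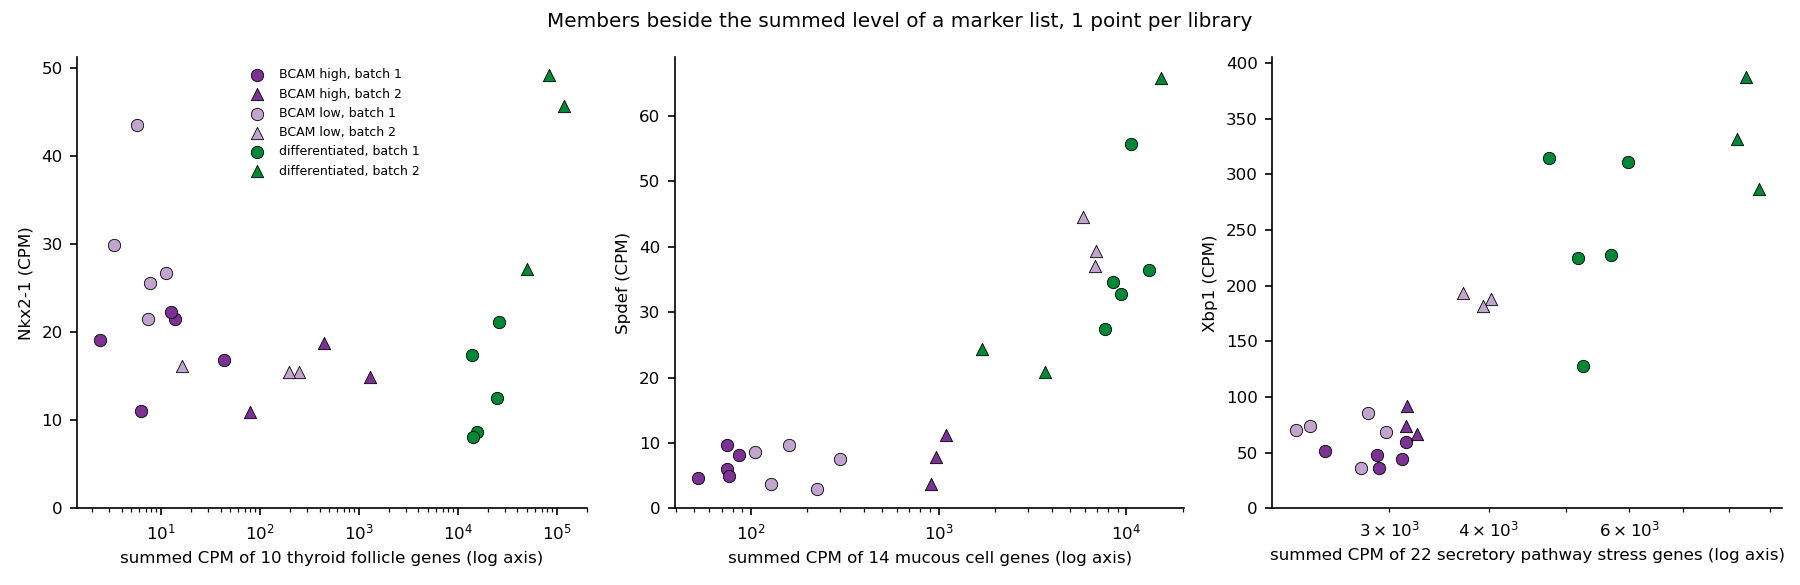
Each library's Nkx2-1, Spdef or Xbp1 level (CPM) against the summed CPM of thyroid follicle, mucous cell or secretory pathway stress genes (log axis), coloured by group and shaped by batch. The differentiated libraries of batch 2 lead in thyroid genes, and replicates 6 and 7 among them in Nkx2-1, while the batch 2 BCAM low libraries lie near the differentiated ones for mucous genes and Spdef.

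Elf3, an ETS factor of epithelia, lies at chr1:135253575-135258568 and overlaps the antisense gene Gm26642. By median it was the most abundant of the 10 in each group. Its level was 284 to 470 CPM in BCAM high (median 368), 369 to 596 in BCAM low (median 483) and 187 to 551 in differentiated libraries (median 394). The ranges of all 3 groups overlap. BCAM high was lower than BCAM low by 0.41 log2 (SE 0.13, adjusted p 0.0461, edgeR), a call at the edge of the threshold. BCAM low was higher than differentiated cells by 0.44 log2 (SE 0.13, adjusted p 0.00896), and BCAM high differed from them by 0.03 log2 (95% interval -0.24 to 0.29). Leaving out any 1 of 14 libraries ended the call between the subsets (BCAM high 2 to 7, BCAM low 1, 2 and 5 to 8, differentiated 3 and 5), with an adjusted p of 0.0204 to 0.0992 over the 24 fits that leave out 1 library. Without the 3 batch 2 differentiated libraries, the difference of BCAM low from differentiated cells was 0.25 log2 with an adjusted p of 0.114, and without replicates 6 and 7 it was 0.26 with 0.0609.

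Ehf, the ETS relative of Elf3 at chr2:103263433-103303278, was called in none of the 3 comparisons. It measured 129 to 318 CPM in BCAM high (median 158), 131 to 275 in BCAM low (median 208) and 54.6 to 196 in differentiated libraries (median 170). Its spread followed the batches: BCAM high libraries held 129 to 179 CPM in batch 1 and 248 to 318 in batch 2. The fitted differences were -0.10 log2 between the subsets (95% interval -0.59 to 0.39), 0.33 for BCAM high against differentiated (-0.17 to 0.83) and 0.43 for BCAM low against differentiated (-0.07 to 0.93). Within batch 2 alone, Ehf was higher than in differentiated cells by 1.41 log2 in BCAM high (adjusted p 0.0122) and by 1.27 in BCAM low (adjusted p 0.0299). In batch 1 these were -0.25 and 0.04 log2, and neither was called (adjusted p 0.187 and 0.873, all in edgeR). With offsets for transcript length, both differences over all libraries passed the threshold, at 0.71 log2 (adjusted p 0.0113) and 0.58 (adjusted p 0.0478).

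Grhl2, the grainyhead factor that keeps epithelial junction genes active, lies at chr15:37233036-37363569 and overlaps the antisense genes Gm16136 and Gm16137. It was higher in both basal subsets. Its level was 69.4 to 167 CPM in BCAM high (median 111), 87.5 to 117 in BCAM low (median 104) and 61.7 to 102 in differentiated libraries (median 70.5). In batch 1 BCAM low held 87.5 to 110 CPM and differentiated libraries 61.7 to 83.9. In batch 2 these were 107 to 117 and 62.3 to 102 CPM. The edgeR differences were 0.64 log2 for BCAM high (SE 0.12, adjusted p 8.45e-05) and 0.48 for BCAM low (SE 0.12, adjusted p 0.00273), with 0.16 between the subsets (95% interval -0.08 to 0.40). With transcript length offsets, the second fell to 0.36 log2 and was no longer called (adjusted p 0.1002). The library type is not stated to keep strand, so reads of antisense partners cannot be told apart from those of Elf3, Grhl2 and Nkx2-1.

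Spdef, the ETS factor of mucous cells at chr17:27714352-27728955, was low in BCAM high and high in differentiated cells. It measured 3.76 to 11.3 CPM in BCAM high (median 6.92), 3.03 to 44.6 in BCAM low (median 9.18) and 20.9 to 65.8 in differentiated libraries (median 33.7). No BCAM high library reached the lowest differentiated one, as for 7.3% of all tested genes. BCAM low was divided by batch, at 3.03 to 9.70 CPM in batch 1 and 37.1 to 44.6 in batch 2. In the edgeR fit Spdef changed by -2.43 log2 from differentiated to BCAM high cells, 5.37-fold lower (SE 0.42, adjusted p 4.45e-05).

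For BCAM low against differentiated the Spdef difference was -1.36 log2 (SE 0.41, adjusted p 0.0129). Within the batches it was -2.51 log2 in batch 1 (adjusted p 4.15e-07) and 0.12 in batch 2 (adjusted p 0.898). The difference between the batches was called, at 2.62 log2 (SE 0.53, adjusted p 9.96e-04, all edgeR). BCAM high against low was -1.07 log2 and not called (95% interval -1.95 to -0.19, adjusted p 0.139), with 0.05 in batch 1 and -2.40 in batch 2. The summed level of 14 mucous cell genes moved with Spdef over these groups, at 105 to 299 CPM in BCAM low batch 1, 5876 to 6877 in BCAM low batch 2 and 1695 to 15353 in differentiated libraries. In BCAM high the mucous sum was 52.4 to 86.4 CPM in batch 1 and 911 to 1090 in batch 2, where the Spdef range of 3.76 to 11.3 CPM spanned that of batch 1. Clca1 made up most of this batch 2 sum, at a mean of 835 CPM against 4.09 in batch 1. In BCAM low Clca1 averaged 15.4 CPM in batch 1 and 3796 in batch 2. Of 11 tested mucous genes, 3 were called higher in batch 2 of BCAM high and 9 in that of BCAM low, beside 4.93% and 6.48% of all genes. Ciliated cell markers also differed between the batches of BCAM low, where 9 of 10 were called higher in batch 2 (median 4.23 log2, against -0.017 for all tested genes). Their summed level was 333 to 516 CPM in BCAM low batch 1, 441 to 706 in BCAM low batch 2 and 313 to 1153 in differentiated libraries. Tppp3, the only one of the 10 with a lower mean in batch 2 of BCAM low, held most of the batch 1 sum. It averaged 417 CPM in BCAM low batch 1 and 247 in batch 2. Foxj1 averaged 1.67 and 53.1 CPM there, and Dnah5 0.784 and 36.2. The part of either list in the Spdef and Xbp1 values was not tested.

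Part of the Spdef signal lay on models that do not code for protein. In BCAM high these held 52.7% of its estimated counts, nearly all on the retained-intron model Spdef-206 with 50.8%. The share was 17.9% in BCAM low and 33.8% in differentiated libraries. Per library it ran from 0 to 90.9% in BCAM high, so a single library says little at 12 to 38 counts.

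Creb3l1, a membrane-bound CREB3-type factor of secretory cells at chr2:91982328-92024502, passed the filter mainly through the differentiated group, where 7 of 8 libraries had at least 10 counts, against 2 in BCAM high and 3 in BCAM low. Passing mainly through 1 group favours a difference in advance, and the size of that of Creb3l1 is therefore given as a description. Its level was 0.263 to 4.95 CPM in BCAM high (median 0.635), 0 to 6.05 in BCAM low (median 2.14) and 2.13 to 22.2 in differentiated libraries (median 18.3). The differentiated libraries were high except replicates 6 and 7 of batch 2, at 6.78 and 2.13 CPM. Summed counts were 38, 58 and 228. The edgeR fit gave -3.79 log2 for BCAM high against differentiated (SE 0.61) and -2.96 for BCAM low (SE 0.58), and in batch 2 alone -1.70 and -1.07 log2. Between the subsets it gave -0.83 log2 (95% interval -2.05 to 0.39).

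Xbp1, the factor that enlarges the endoplasmic reticulum of secreting cells, at chr11:5520659-5525893, was lowest in BCAM high, intermediate in BCAM low and highest in differentiated cells. Its level was 36.4 to 92.2 CPM in BCAM high (median 55.4), 36.6 to 194 in BCAM low (median 79.5) and 128 to 388 in differentiated libraries (median 299). Every BCAM high library was below every differentiated one, as for 7.3% of all tested genes. The batch 2 libraries of BCAM low, at 182 to 194 CPM, reached into the differentiated range. The edgeR differences were -2.26 log2 for BCAM high against differentiated (4.79-fold lower, SE 0.20, adjusted p 8.47e-10), -1.45 for BCAM low against differentiated (SE 0.19, adjusted p 1.74e-06) and -0.81 for BCAM high against low (SE 0.19, adjusted p 0.0105). The last was -0.48 in batch 1 (adjusted p 0.273) and -1.28 in batch 2 (adjusted p 5.17e-04), and without the 3 batch 2 BCAM low libraries it was -0.43 with an adjusted p of 0.254. The main coding model Xbp1-201 held 90.3% to 92.6% of the counts in every group.

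Within each group, several factors differed between the batches. In BCAM high, 3 of 9 were called in the edgeR fit, all higher in batch 2, where 8.04% of all genes were called and 4.93% called higher: Creb3l1 (2.65 log2, adjusted p 0.0249), Ehf (1.04, adjusted p 0.00550) and Grhl2 (0.59, adjusted p 0.0191). Creb3l1 was near the floor here, with 1 to 3 counts per BCAM high library in batch 1 and 3 to 14 in batch 2. The calls of Creb3l1 and Grhl2 were each lost without BCAM high replicate 2, 6 or 7 (adjusted p up to 0.177 and 0.159). In BCAM low, 2 were called, both higher in batch 2, where 11.1% of all genes were called and 6.48% called higher: Spdef at 2.62 log2 (adjusted p 1.21e-05) and Xbp1 at 1.49 (adjusted p 8.05e-05). In differentiated cells 4 were called, where 20.1% of all genes were: Nkx2-1 was higher in batch 2 by 1.57 log2 (adjusted p 2.81e-04), while Foxa1 (-1.16, adjusted p 4.29e-04), Sox2 (-1.01, adjusted p 0.0111) and Elf3 (-0.81, adjusted p 7.71e-04) were lower. None of these 4 was called without differentiated replicates 6 and 7, with adjusted p of 0.244 to 0.612, in a group then left with 1 library of batch 2.

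For 6 factors the difference between groups itself changed with the batch: Nkx2-1, Ehf, Creb3l1, Spdef, Foxa1 and Xbp1. For BCAM high against low such an interaction was called for Spdef, beside 1.06% of all genes. For BCAM high against differentiated it was called for Nkx2-1, Ehf, Creb3l1 and Foxa1, beside 8.69%. For BCAM low against differentiated it was called for Nkx2-1, Ehf, Xbp1, Spdef and Creb3l1, beside 11.4%. The 6 are counted over these 3 comparisons together, for which no joint share of all genes is given. No interaction of Grhl2, Sox2 or Elf3 was called, which does not show that there was none. For Sox2 in BCAM high against differentiated it was 1.02 log2 (95% interval 0.26 to 1.78, adjusted p 0.0870, edgeR). For Elf3 in BCAM low against differentiated it was 0.59 log2 (0.11 to 1.07, adjusted p 0.106, edgeR). For Grhl2 in BCAM high against differentiated it was 0.41 log2 (-0.07 to 0.89). Foxa1 stood above differentiated cells by more in batch 2 (1.90 log2 in BCAM high) than in batch 1 (0.49), a difference of 1.41 log2 (SE 0.30, adjusted p 0.00220, edgeR). Xbp1 in BCAM low was closer to differentiated cells in batch 2 (-0.83 log2) than in batch 1 (-1.85), and this change of 1.01 log2 (adjusted p 0.0472) was lost without any 1 of 19 of the 24 libraries. That of Creb3l1 in BCAM low, 2.74 log2 (adjusted p 0.0483), was lost without any 1 of 20 libraries. The interaction of Spdef between the subsets was lost without any 1 of 5 libraries (BCAM high 2, 6 or 7, BCAM low 6 or 7; adjusted p up to 0.0913 in edgeR). That of Creb3l1 in BCAM high was lost without any 1 of 4 (BCAM high or differentiated 6 or 7; up to 0.0891), and that of Ehf in BCAM low without differentiated replicate 6 (0.0601).

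**Figure D5:**
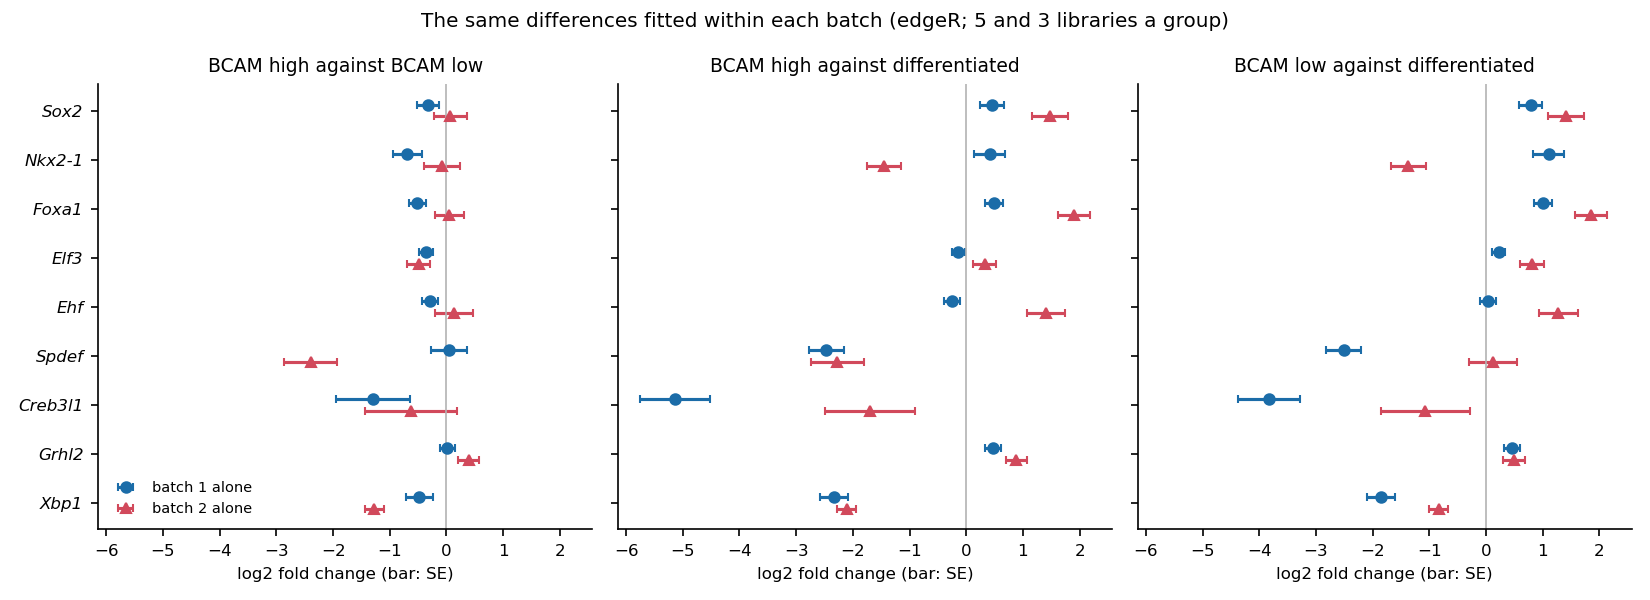
The log2 differences of the 9 tested factors fitted within batch 1 (circles, 5 libraries a group) and batch 2 (triangles, 3 libraries a group), with standard errors. Nkx2-1 lies on opposite sides of 0 in the batches for both comparisons with differentiated cells, and Spdef in BCAM low is at -2.51 log2 in batch 1 and 0.12 in batch 2.

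Genes of the same pathways were counted from lists chosen with earlier results of these data known. Their counts stand beside 22% of all tested genes called lower and 19.4% called higher in BCAM high against differentiated cells, 17.1% and 16.3% in BCAM low against differentiated cells, and 4.59% called lower between the subsets. Among 22 secretory pathway stress genes, which include chaperones and degradation genes driven by XBP1 and its relatives, 17 fell in BCAM high against differentiated cells and 16 in BCAM low, and none rose (median -1.16 and -1.12 log2, against 0.02 for all tested genes in each). Sdf2l1, a component of a chaperone complex, was at 5.71 ± 1.88 CPM among BCAM high, 16.6 ± 11.4 among BCAM low and 136 ± 85.1 among differentiated libraries (mean ± SD, n = 8), a fitted -4.35 log2 for BCAM high against differentiated (adjusted p 4.07e-11 in edgeR). Creld2 followed at -2.04 log2 (adjusted p 4.36e-12) and Dnajb11, an ER co-chaperone, at -2.42 (adjusted p 8.54e-08). Between the subsets 3 fell in BCAM high, Sdf2l1, Dnajb11 and Dnajc3, with a list median of -0.08 log2 that turned to 0.25 on log2(TPM + 1) and to 0.02 with length offsets. None of the 22 was called between the subsets in edgeR fits of batch 1 alone, without a batch term or without the 3 batch 2 BCAM low libraries. The summed list ran from 2492 to 3251 CPM among BCAM high and 2291 to 4031 among BCAM low libraries. Differentiated libraries did not overlap with these, at 4754 to 5977 CPM in batch 1 and 8200 to 8723 in batch 2. Within that group 12 of the 22 genes were called higher in batch 2 and 1 lower, where 20.1% of all genes were called. Its batch 2 also held the higher thyroid follicle sums, 49700 to 117300 CPM, whose part was not tested.

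Of 14 mucous cell genes 11 were tested. Muc5ac, Tff2, Foxa3 and Fut2 had 10 counts in fewer than 4 BCAM high libraries. They passed the filter mainly through the other groups, which favoured a difference in advance. The other 7 all fell in BCAM high against differentiated cells. In BCAM low 7 of the 11 fell, of which 1 had 10 counts in fewer than 4 BCAM low libraries, and the median was -1.94 log2. This turned to 0.20 with 0 called in batch 2 alone, and was -0.90 with 3 called without a batch term. Between the subsets 4 were lower in BCAM high, 1 of them with 10 counts in fewer than 4 libraries there. Muc5b, the main gel-forming mucin of the airway, was at 6.16 ± 5.72 CPM among BCAM high, 213 ± 282 among BCAM low and 3001 ± 1551 among differentiated libraries (mean ± SD, n = 8). Tff2, a trefoil peptide secreted with mucus, had a median of 0.755 CPM in BCAM high and 623.5 in differentiated libraries. Without the 3 batch 2 BCAM low libraries, 0 of the 4 calls between the subsets were left. Of 14 club cell genes, among them known targets of NKX2-1 and FOXA factors, 12 fell in BCAM high (median -2.91) and 9 in BCAM low (median -2.01) against differentiated cells, while on log2(TPM + 1) 2 and 1 of the 14 were called higher. In these edgeR counts 1 gene in BCAM high and 2 in BCAM low had 10 counts in fewer than 4 libraries of that subset. In batch 2 alone BCAM low had 1 club cell gene called higher and 1 lower, and the median turned to 0.53, against -2.96 in batch 1. Scgb1a1, the club cell secretoglobin, was at 190 ± 174, 3049 ± 3121 and 58265 ± 46417 CPM in the 3 groups. Over all libraries this was the reverse of the order of Foxa1 and Sox2 between basal and differentiated cells. In batch 2 Scgb1a1 averaged 6565 CPM in BCAM low and 5380 in differentiated libraries, so the reversal did not hold there for BCAM low.

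Among 18 epithelial junction genes, the setting of GRHL2, 12 fell and 2 rose in BCAM high against differentiated cells (median -0.82 log2), and 8 fell and 3 rose in BCAM low, where the median of -0.27 became 0.16 on log2(TPM + 1) and 0.063 in batch 2 alone, with 2 higher and 1 lower. Between the subsets 8 fell in BCAM high and none rose. Cldn3, a tight junction claudin, was at 147 ± 25.7 CPM among BCAM high, 455 ± 68.2 among BCAM low and 783 ± 279 among differentiated libraries (mean ± SD, n = 8). The order of Cldn3 across the groups was the reverse of that of median Grhl2. Of 22 relatives of the 10 factors 20 were tested: 6 rose and 10 fell in BCAM high against differentiated cells, and 6 rose and 6 fell in BCAM low. Of these calls 3 in BCAM high and 2 in BCAM low were of genes with 10 counts in fewer than 4 libraries of the lower group. In batch 2 alone 2 rose and 2 fell in BCAM low. The medians of -0.65 and -0.07 log2 became 0.04 and 0.32 on log2(TPM + 1), a scale that moved the median of all tested genes to 0.64 and 0.40.

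Sox9 and Sox15 differed in opposite directions between basal and differentiated cells. Sox9, a SOX factor known from submucosal glands and lung buds, was at 6.61 ± 3.86 CPM among BCAM high, 3.64 ± 2.94 among BCAM low and 81.6 ± 46.5 among differentiated libraries, -3.60 log2 for BCAM high against differentiated (adjusted p 5.12e-08 in edgeR). Among differentiated libraries Sox9 averaged 50.5 CPM in batch 1 and 133 in batch 2, and the part of thyroid follicle RNA in this was not tested. Sox15 was instead higher in the basal groups, at 22.8 ± 6.02, 11.1 ± 4.12 and 3.11 ± 3.10 CPM in the same order of groups (mean ± SD, n = 8). It had 10 counts in only 1 differentiated library, so it passed the filter through the basal groups, and it was higher in BCAM high than in BCAM low (0.98 log2, adjusted p 0.0451). Grhl1, the paralog of Grhl2, differed from it in direction, at 9.37 ± 2.89 CPM among BCAM high, 23.0 ± 7.28 among BCAM low and 35.7 ± 6.52 among differentiated libraries. Its fitted differences in BCAM high were -1.28 log2 against BCAM low (adjusted p 3.16e-04) and -1.92 against differentiated cells (adjusted p 2.50e-08).

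Likeness of pattern was measured as the root mean square difference of log2 CPM over the 24 libraries, each gene centred on its own mean, among 9034 genes with a mean of at least 10 CPM. Grhl2 had the closest neighbour of any of the factors, Faf2 at 0.18 log2, then Ece1 at 0.20, beside a spread of 0.38 for Grhl2 itself. Elf3 lay nearest to Anxa2 (0.22) and Krtcap3 (0.23), and Ehf to Stk38 (0.22) and Fam84a (0.28). Foxa1 was nearest to S100a14 (0.28) and Hspb1 (0.29), and Hspb1 was also the nearest gene to Sox2 (0.30), followed by S100a16 (0.31). Sox2 and Foxa1 were each other's nearest members at 0.36, beside spreads of 0.63 and 0.74.

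Nkx2-1 had no close neighbour relative to its spread of 0.65: Tpr and Cyth2 came nearest, at 0.42 and 0.44, and among the members Grhl2 at 0.78. The secretory factors varied most. Xbp1, with a spread of 1.09, was nearest to Atp1b1 (0.41) and the ER co-chaperone gene Dnajc3 (0.44). Spdef, with a spread of 1.29, was nearest to Tspan13 (0.55) and Kdelr3 (0.65), an ER retention receptor, and Creb3l1, with a spread of 1.61, to Msln (0.74) and Fam174b (0.79). Spdef and Xbp1 were each other's nearest members at 0.67, Ehf and Grhl2 at 0.40, and Creb3l1 lay nearest to Xbp1 at 0.92. The libraries fall into 3 groups and 2 batches, which these values share, so they describe the libraries only.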

How the data were processed

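RNA abundance was measured in 24 libraries of sorted tracheal cells, in read pairs of 38 bases per end. Each library has a deposited table that lists, per the file headers, an estimated count and a TPM value (scaled for transcript length) for every transcript; the deposited estimated counts are not scaled to depth. The submitters' processing notes name kallisto, Picard and genome build GRCm39, without roles. Transcripts were matched without version to GENCODE M21 (GRCm38), which supplied symbols and all gene coordinates: 116374 of 117497 matched, and the rest held 0.317% to 0.594% of a library's counts. Counts were summed per gene and rounded. SmartSeq2 reads have no molecular identifiers, so the count ratios' intervals cover counting error only; intervals of fitted differences come from the fit over libraries.

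Groups were compared with edgeR 4.0.16's quasi-likelihood F-test (R 4.3.3, robust, TMM, default filter on low counts) over all 24 libraries, with group and batch; a second fit, with 1 mean for each combination of group and batch, gave batch differences and interactions. P-values were adjusted by Benjamini-Hochberg over 12211 genes. The standard error is the fold change over the square root of F. The code was tested on simulated data. Nothing states that libraries of a group came from separate mice, so p-values measure the spread between these samples. CPM use TMM-scaled totals, with a prior count of 2 for log2 CPM.

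Alternatives were DESeq2 1.42.0 size factors and its Wald test, no filter, limma 3.58.1 on log2(TPM + 1) and log2(TPM + 0.1), transcript length offsets, each batch alone, no batch term, a replicate block and leaving out each library. The members and lists were chosen with earlier results of these data known. By rule the text names all members, the 2 nearest genes of each by log2 CPM without predicted genes, and up to 3 called genes per list and comparison with a mean of at least 10 CPM; the marker sums cover thyroid, mucous, basal and secretory genes. Genes that overlap or share sequence can exchange reads.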

Additional observations from a re-analysis of the deposited data

Results flagged for a closer look

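Of 30 sets of 8 libraries (10 factors in 3 groups), 1 held a library far from the others: Foxa2 in BCAM low replicate 6, at 1.76 CPM from 4 counts. Its gap to the next library made up 0.598 of the range, above the critical 0.526 for 8 samples, and chance sets off this check in about 1 of 20 groups.

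In 10 cases the edgeR test found that a difference between groups was not the same in the 2 batches (value in batch 2 minus value in batch 1, log2). For BCAM high against BCAM low this held for Spdef at -2.44 (adjusted p 0.0237). For BCAM high against differentiated it held for Nkx2-1 at -1.86 (0.00448), Ehf at 1.66 (0.00216), Creb3l1 at 3.42 (0.0232) and Foxa1 at 1.41 (0.00220). For BCAM low against differentiated it held for Nkx2-1 at -2.48 (1.97e-04), Ehf at 1.23 (0.0178), Xbp1 at 1.01 (0.0472), Spdef at 2.62 (9.96e-04) and Creb3l1 at 2.74 (0.0483).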

How the results depend on the processing

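Depth, at 1824619 or more counts per library, limits Foxa2 and Creb3l1 most. With Creb3l1 included, the counts of 6 and 7 called factors against differentiated cells were 6 and 7 in each of the 24 fits that leave out 1 library, and those for BCAM high against low ran from 1 to 2. The latter count was 1 with DESeq2 size factors, in batch 1 alone, with transcript length offsets and without a filter, and 0 with limma on either TPM scale, without a batch term and without the 3 batch 2 BCAM low libraries. The count between batches within BCAM high was 0 with limma on log2(TPM + 1), 1 with length offsets and 1 to 4 on leaving out a library. Within BCAM low it was 4 with the DESeq2 Wald test, 5 without a filter, 5 without differentiated libraries 6 and 7, and 2 to 5 on leaving out a library. Within differentiated cells it was 0 without differentiated libraries 6 and 7 and 3 to 5 on leaving out a library. Of the 6 factors whose differences changed with batch, 1 was left with limma on log2(TPM + 1), 3 with length offsets, 2 without differentiated libraries 6 and 7, and 4 to 8 on leaving out a library. The settings that leave out groups of libraries were chosen after seeing the data, and where no other source is shown the cause was not tested.

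Signs turned as follows (log2). On log2(TPM + 1) and log2(TPM + 0.1), Sox2 between the subsets was 0.039 and 0.042, Ehf 0.38 and 0.38, and Nkx2-1 in BCAM high against differentiated 0.39 and 0.48. Length offsets gave 0.14 for Ehf between the subsets. Batch 1 alone gave 0.42, -0.14 and -0.25 for Nkx2-1, Elf3 and Ehf in BCAM high against differentiated, and 0.046 for Spdef between the subsets. Batch 2 alone gave 0.064, 0.050 and 0.13 for Sox2, Foxa1 and Ehf between the subsets, and -1.37 and 0.12 for Nkx2-1 and Spdef in BCAM low against differentiated. For BCAM high against differentiated, leaving out the batch 2 differentiated libraries gave 0.53, -0.16 and -0.17 for Nkx2-1, Elf3 and Ehf, and leaving out only differentiated 6 and 7 gave 0.10, -0.14 and -0.027. Ehf in BCAM low was -0.038 without the batch 2 differentiated libraries, where Nkx2-1 was called at 1.01. Without the batch 2 BCAM low libraries, Ehf and Spdef between the subsets were 0.042 and 0.083. Without a batch term Elf3 in BCAM high against differentiated was -0.0055. Leaving out 1 library turned Nkx2-1 in BCAM low against differentiated (BCAM low 3, differentiated 1, 2 or 5; range -0.064 to 0.27) and Elf3 in BCAM high against differentiated (BCAM high 1 or 8, differentiated 6 or 7; range -0.056 to 0.10). Of these turned values, that of Nkx2-1 in batch 2 alone passed the threshold.

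limma on log2(TPM + 1) moved the median of all genes to 0.23 for BCAM high against low, 0.64 for BCAM high and 0.40 for BCAM low against differentiated. Calls higher and lower over all genes were then 820 and 228, 6812 and 901, and 4210 and 652, against 297 and 560, 2363 and 2681, and 1996 and 2090 in the edgeR fit. On that scale Elf3 and Ehf were also called higher in both subsets than in differentiated cells.

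With the replicate number as a block and Creb3l1 included, 2, 6 and 7 factors were called, as without the block, and 864, 5129 and 4136 genes in all. Same-numbered libraries of different groups correlated in their deviations by 0.0315 to 0.176 over 24 pairs, above 0.1 in 7. Among the libraries of the other groups in their batch, 23 of 24 libraries correlated best with their own number. Libraries of equal number thus shared a small part of their deviations, which the main fit, without a replicate block, leaves out. The labels do not say whether equal numbers share a source, and this was not tested.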
